A study of Mus musculus with 9 samples.

Results

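Metallothioneins and genes that sense or move zinc were described in T cells sorted from Th17 and Treg cultures by a GFP reporter, a Foxp3 reporter or both. The genes are Mt1 and Mt2 (metallothioneins), Mtf1 (the zinc sensor), Slc30a1 (a zinc exporter) and Slc39a10 and Slc39a14 (zinc importers). They are 6 of the 24062 named genes in the count table, where all 6 have a row. They were listed by name, chosen by their levels and differences in these same libraries. Their own values are therefore a description: no p is given for them, and a count of members past a threshold stands only beside the share of all genes. Of the 6, 4 (Mt1, Mt2, Mtf1 and Slc39a14) exceeded 10 CPM (counts scaled to the total of the library) somewhere among the libraries, the filter applied before any fit, and Slc30a1 and Slc39a10 did not.

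Metallothioneins are small, cysteine-rich proteins of the cytosol that bind zinc and copper. When free zinc rises, the transcription factor MTF-1 (gene Mtf1) binds metal response elements in front of its targets, among them Mt1, Mt2 and Slc30a1, and so raises both zinc storage and zinc export. ZnT proteins (Slc30a genes) move zinc out of the cytosol, and ZIP proteins (Slc39a genes) bring it in from outside the cell or from vesicles. Metallothionein transcripts also respond to glucocorticoids and to oxidative stress, and both they and the importer ZIP14 (Slc39a14) are known as IL6-responsive genes in liver.

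All cells came from dual-reporter mice, F1 males heterozygous for a GFP transgene that marks Th17 cells and for an RFP knocked in behind Foxp3, aged 6 to 10 weeks. Naive CD4+ spleen T cells were activated with anti-CD3 and anti-CD28 beads and cultured for 72 hours (3 days) without neutralizing antibodies. Double-positive GFP+Foxp3-RFP+ (DP) and single-positive GFP+ (SPR) cells were sorted from the Th17 culture, which held 5 ng/ml TGFβ with 20 ng/ml IL6. Single-positive Foxp3-RFP+ (SPF) cells were sorted from the Treg culture, which held 10 ng/ml TGFβ with 5 ng/ml IL2. In comparisons with SPF, the sorted cells, cytokines and dose of TGFβ all differ at once and cannot be told apart. There were 3 biological replicates of each population, 9 libraries in all. Foxp3, the gene of one sorting reporter, was on average at 100.3 CPM in DP, 7.01 CPM in SPR and 228 CPM in SPF, so that both populations sorted as Foxp3+ were above SPR.

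The upstream sequences of Mt1, Mt2 and Slc30a1 are shown because these are the members with a match to a metal response element core in the 250 bases before the RefSeq start site (GRCm38.p6, forward strand of each gene). The core was searched on both strands as TGCACNC and TGCGCNC, and matches are in capitals. The window of Mt1 is chr8:94178839-94179088, that of Mt2 is chr8:94172368-94172617 and that of Slc30a1 is chr1:191906531-191906780, all 3 on the plus strand.
Mt1: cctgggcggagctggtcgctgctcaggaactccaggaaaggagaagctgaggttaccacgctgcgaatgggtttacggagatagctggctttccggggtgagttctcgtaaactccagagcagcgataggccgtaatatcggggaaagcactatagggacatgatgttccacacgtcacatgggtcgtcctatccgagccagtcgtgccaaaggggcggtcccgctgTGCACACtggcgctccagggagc
Mt2: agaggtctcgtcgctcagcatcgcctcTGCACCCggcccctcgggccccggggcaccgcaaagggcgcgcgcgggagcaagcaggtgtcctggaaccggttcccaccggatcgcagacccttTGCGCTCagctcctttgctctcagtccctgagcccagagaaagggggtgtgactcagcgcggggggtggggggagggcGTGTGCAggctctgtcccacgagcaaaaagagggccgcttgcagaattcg
Slc30a1: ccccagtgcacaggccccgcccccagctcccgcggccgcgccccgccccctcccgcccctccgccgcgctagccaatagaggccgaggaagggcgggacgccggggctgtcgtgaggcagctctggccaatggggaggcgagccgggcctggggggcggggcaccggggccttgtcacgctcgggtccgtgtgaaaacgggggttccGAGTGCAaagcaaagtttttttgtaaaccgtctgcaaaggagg

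Mt2 held 3 matches, beginning 223, 128 and 50 bases before the start site, while Mt1 held 1, beginning 23 bases before it, and Slc30a1 held 1, beginning 43 bases before it. At least 1 match stood in 21.4% of all 32851 RefSeq windows of this length and at least 3 in 1.26%. RefSeq windows were given for 5 of the 6 members, and neither Mtf1 nor Slc39a10 (2 windows) held a match. The core TGACNNNGC of the antioxidant response element, searched on both strands, stood once in the window of Mt2 and once in that of Slc30a1, against at least 1 in 10.2% of all windows. Some start sites are uncertain: GENCODE M21 lists further Mt1 transcripts that begin 122 and 152 bases after the RefSeq start. The 250 bases before each of these 2 starts held 5 matches, the nearest beginning 24 and 54 bases upstream. Its Mt2 transcripts begin 46 and 242 bases after the RefSeq start of Mt2. The 250 bases before them held 3 and 4 matches, the nearest beginning 42 and 131 bases upstream. A match is a description of letters and not a measured binding site.

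**Figure D1:**
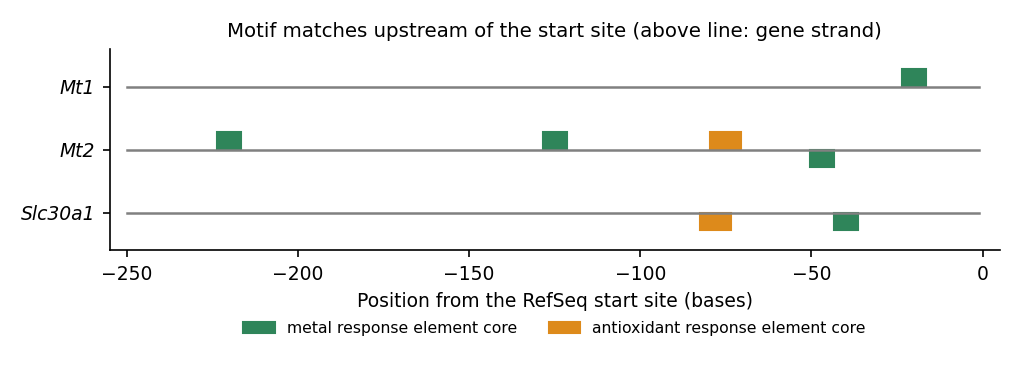
Matches to the metal response element core (green) and the antioxidant response element core (orange) in the 250 bases before the RefSeq start sites of Mt1, Mt2 and Slc30a1. The horizontal axis is the position from the start site in bases, and boxes above a line lie on the gene's strand. Mt2 has 3 green boxes, Mt1 and Slc30a1 have 1 each.

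Mt1 and Mt2 transcripts were far more abundant in the Th17 culture than in the Treg culture, and within the Th17 culture they were lower in DP than in SPR cells of the same replicate number. Mt1 lies at chr8:94179082-94180327 on the plus strand (GRCm38, GENCODE M21), with no annotated gene over it. Mt2 lies at chr8:94172664-94173568 on the same strand, and its end is 5513 bases before the start of Mt1. An antisense gene, Gm45774, overlaps Mt2, and since the strand setting of the counting is not known, its reads could not be separated from those of Mt2.

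In the order of replicates 1, 2 and 3, Mt1 stood at 342, 1112 and 454 CPM in DP cells, against 1057, 2524 and 1699 CPM in SPR cells and 44.9, 100 and 117 CPM in SPF cells. Every DP and SPR library was above every SPF library, while DP replicate 2 exceeded SPR replicate 1, so that DP and SPR overlapped. The mean CPM of Mt1 was 636 ± 416 for DP, 1760 ± 735 for SPR and 87.2 ± 37.5 for SPF (SD, n = 3 each). The fitted log2 fold change was -1.52 ± 0.48 (SE) for DP over SPR, 2.79 ± 0.51 for DP over SPF and 4.31 ± 0.54 for SPR over SPF.

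Mt2 stood at 281, 945 and 411 CPM in DP, against 840, 2225 and 1575 CPM in SPR and 25.9, 58.6 and 56.2 CPM in SPF. The pattern was that of Mt1, with DP replicate 2 again above SPR replicate 1 and all SPF libraries lowest. Its mean CPM was 546 ± 352 for DP, 1547 ± 693 for SPR and 46.9 ± 18.3 for SPF (SD, n = 3 each). The log2 fold change of Mt2 was -1.55 ± 0.48 (SE) for DP over SPR, 3.46 ± 0.53 for DP over SPF and 5.01 ± 0.56 for SPR over SPF. In bulk libraries, fewer expressing cells and less RNA per cell cannot be told apart.

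**Figure D2:**
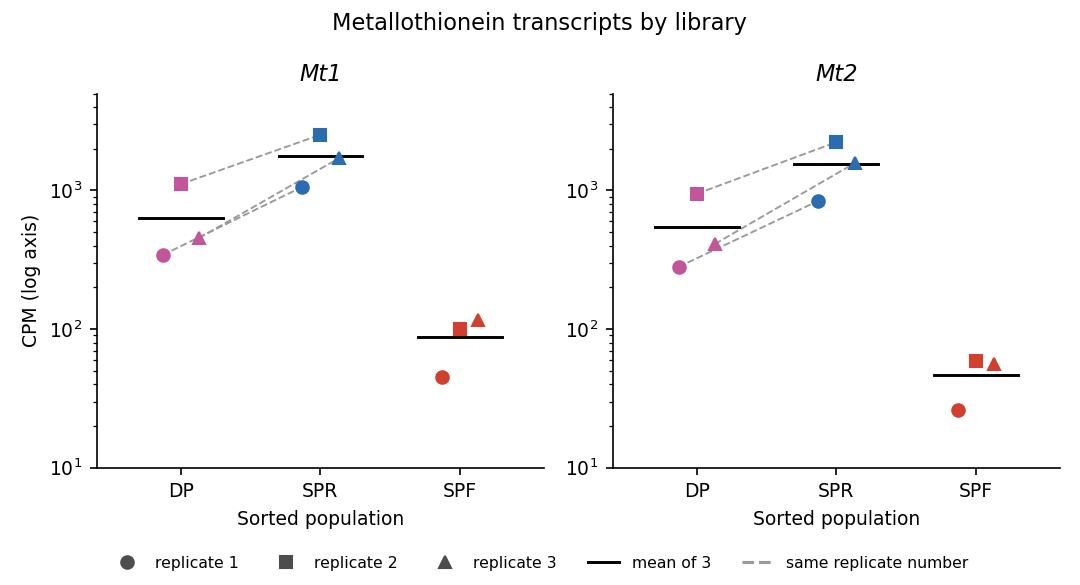
Mt1 and Mt2 in each library, in CPM on a log axis, for DP, SPR and SPF cells. Symbols mark the replicate number, black bars the mean of 3 libraries, and dashed lines join DP and SPR libraries of the same number. The DP point lies below the SPR point of its number in all 3 pairs of both genes, and all SPF points lie at or under 117 CPM.

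Taken by replicate number, the DP library was the lower of each pair for both genes. The Mt1 level in DP was 0.324, 0.441 and 0.267 times that in SPR for replicates 1, 2 and 3, and the Mt2 level 0.334, 0.425 and 0.261 times. Within each pair the 2 genes gave nearly the same ratio. Same-numbered DP and SPR libraries deviated together across the transcriptome, and a paired fit (6 libraries, blocked on replicate number) gave log2 fold changes of -1.61 ± 0.16 (SE) for Mt1 and -1.63 ± 0.16 for Mt2, DP over SPR.

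The filtered members were read against the share of all tested genes that passed an adjusted p of 0.05 in edgeR's quasi-likelihood test. For DP against SPR, 0 of 4 members passed in the fit of 9 libraries, where 0.0107% of 9310 genes did, which is Foxp3 alone (612 genes had an unadjusted p under 0.05, and DESeq2 called 44). In the paired fit 2 of 4 passed, Mt1 and Mt2, both lower in DP, where 3.48% of genes did (1.97% higher and 1.51% lower in DP). For DP against SPF, 3 of 4 (Mt1, Mt2 and Slc39a14, all higher in DP) passed, where 13.7% of genes did (7.55% higher and 6.18% lower). For SPR against SPF the same 3 members were higher in SPR, where 16.7% of genes passed (9.14% higher and 7.58% lower). CPM values did not overlap between the groups for 0 of the 6 members in DP against SPR, 4 in DP against SPF (Slc30a1 being the one that was lower) and 3 in SPR against SPF, where 14.5%, 31.6% and 36.9% of tested genes did not overlap. For DP against SPR, Mt1 passed in 6 and Mt2 in 7 of 21 alternatives, which were the fit of 9 libraries without a low-count filter, the paired fits of DP and SPR libraries alone and, for Mt2 but not Mt1, the replicate block over all 9 libraries. Against SPF, Mt1 and Mt2 passed in both comparisons under the 16 alternatives run, while Slc39a14 did not in 6 of 17 for DP, without any 1 of the DP libraries, SPF replicate 1 or 2 or SPR replicate 3, and in 2 of 17 for SPR, without SPF or SPR replicate 2. The 3 comparisons share libraries, and since the members were listed with these values known, nothing is read from their counts.

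Metallothionein transcripts made up a measurable share of the library. Mt1 and Mt2 together were 0.0623%, 0.206% and 0.0864% of all counts in the 3 DP libraries, against 0.19%, 0.475% and 0.327% in SPR and 0.00708%, 0.0159% and 0.0173% in SPF. The mean ratio of Mt1 to Mt2 counts was 1.17 ± 0.0611 for DP, 1.16 ± 0.0929 for SPR and 1.84 ± 0.2 for SPF (SD, n = 3 each). By library it was 1.22, 1.18 and 1.10 in DP, against 1.26, 1.13 and 1.08 in SPR and 1.74, 1.71 and 2.07 in SPF, so that the lowest SPF ratio was above the highest ratio of the other 2 populations. The SPF ratios rest on few counts: replicate 1 had 99 counts of Mt1 and 57 of Mt2, with an exact (Clopper-Pearson) 95% interval of 1.24 to 2.45 that overlapped the 1.19 to 1.33 of SPR replicate 1. Such intervals cover counting error only. The transcripts of the 2 genes share no identical stretch longer than 20 bases, and none longer than 17 in their last 300 bases, where these 3′ reads fall. Counts of 3′ ends are not scaled by length, and the ratio is compared only between libraries.

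**Figure D3:**
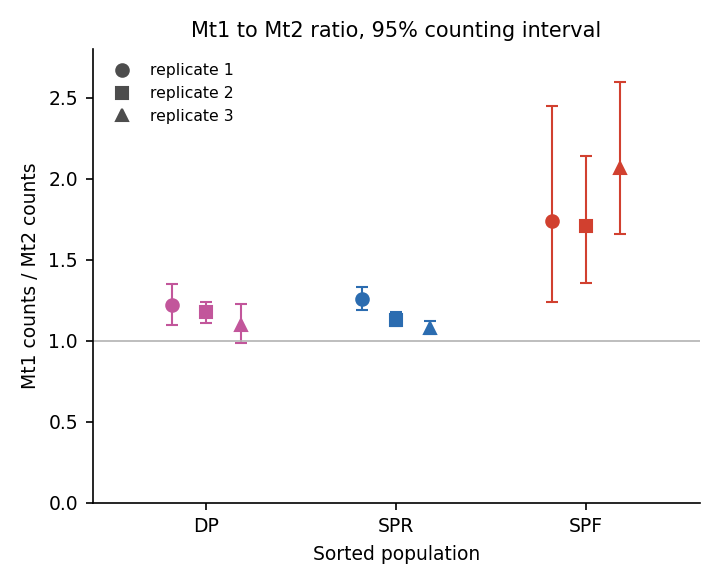
Ratio of Mt1 to Mt2 counts in each library of DP, SPR and SPF cells. Symbols mark the replicate number and bars the exact 95% counting interval, and the grey line is a ratio of 1. The SPF libraries lie between 1.71 and 2.07, the DP and SPR libraries between 1.08 and 1.26.

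Of the Th17-culture libraries, replicate 2 held the highest Mt1 and Mt2 level in both DP and SPR. Across the 2 genes the median log2 level of replicate 2 was 1.2 above that of the other replicates. Of 7 filtered genes of metal and oxidative stress, 4 (Hmox1, Hsph1, Gclc and Txnrd1) were likewise highest in replicate 2 of both populations, with a median difference of 0.33, against 2003 of 9310 tested genes (21.5%, median 0.017). Hmox1 exceeded 10 CPM only in replicate 2 of DP and of SPR, so the filter fixed its order and nothing is read from it. Replicate 2 was also highest in both populations for 4 of 10 ZIP importers (40%, median 0.17), 4 of 11 iron genes (36.4%, median 0.15) and 2 of 11 copper genes (18.2%, median 0.079). None of 5 ZnT exporters (median -0.18), none of 8 glucocorticoid response genes (median -0.026) and none of 7 IL6 and STAT3 response genes (median -0.19) showed this order. With lists this short beside a share of 21.5%, no difference between the lists is read from these counts. In SPF the order differed between the genes: replicate 3 was highest for Mt1 (117 CPM, against 100 CPM in replicate 2), and replicate 2 for Mt2 (58.6 CPM, against 56.2 CPM in replicate 3). Without replicate 2 the paired fit gave a log2 fold change of -1.81 ± 0.19 (SE) for both Mt1 and Mt2, DP over SPR. In the fit of 9 libraries, Mt1 was at -2.18 ± 0.46 without DP replicate 2 and at -1.18 ± 0.50 without SPR replicate 2. What set replicate 2 apart was not tested.

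Mtf1, the zinc sensor, showed almost the same level in the 3 populations. It stood at 16.8, 11.9 and 18.7 CPM in DP, against 17.1, 15.9 and 13.8 CPM in SPR and 18.1, 14.4 and 14.4 CPM in SPF. The groups overlapped in every comparison, and the means were 15.8 ± 3.55, 15.6 ± 1.65 and 15.7 ± 2.16 CPM (SD, n = 3 each) for DP, SPR and SPF. The log2 fold change was -0.04 ± 0.25 (SE) for DP over SPR, -0.07 ± 0.26 for DP over SPF and -0.03 ± 0.25 for SPR over SPF. Mtf1 lies at chr4:124802104-124849800 (plus strand), overlapped by the protein-coding gene 1110065P20Rik on the other strand and the rRNA gene n-R5s192 on the same strand.

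Slc30a1, whose product ZnT1 exports zinc across the plasma membrane and which is itself a target of MTF-1, had few counts. There were 6, 2 and 3 counts (2.52, 0.817 and 2.01 CPM) in DP, against 5, 1 and 13 counts (1.74, 0.43 and 3.46 CPM) in SPR and 6, 13 and 6 counts (2.72, 6.05 and 2.79 CPM) in SPF. On average neither population of the Th17 culture was above SPF, unlike Mt1 and Mt2 in the same libraries, and the highest DP and the lowest SPF library had 6 counts each. Summed over the libraries of a group and scaled by their totals, DP held 0.453 times the SPF level (95% counting interval 0.201 to 0.954) and SPR 0.553 times (0.288 to 1.04). Counting intervals of summed levels, here and below, leave out the spread between libraries. The fit of 9 libraries without a low-count filter gave log2 fold changes of -1.18 ± 0.70 (SE) for DP over SPF and -0.93 ± 0.65 for SPR over SPF. The interval of DP over SPF included 1 without DP replicate 2 (ratio 0.605, 0.248 to 1.34) or SPF replicate 2 (0.632, 0.253 to 1.56). The DP to SPR ratio was 0.82 (0.352 to 1.81), but by replicate number DP was higher in 2 of 3 pairs, at 1.45, 1.9 and 0.58 times the SPR level. SPR replicate 3 held 13 of the 19 SPR counts, and without it the ratio was 1.51 (0.51 to 4.96) for DP over SPR and 0.301 (0.101 to 0.751) for SPR over SPF. The gene lies at chr1:191906767-191913247 (plus strand) with an antisense gene, 1700034H15Rik, over it.

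Slc39a10 (ZIP10, a plasma membrane importer) was also low and did not separate the groups. It stood at 2.52, 7.36 and 3.34 CPM in DP, against 4.19, 4.73 and 4.79 CPM in SPR and 4.54, 3.26 and 6.04 CPM in SPF. The ratio of summed levels was 1 for DP over SPR (95% counting interval 0.6 to 1.65) and 0.995 for DP over SPF (0.576 to 1.72). DP replicate 2 held 18 of the 29 DP counts, and without it the ratios were 0.62 (0.287 to 1.23) and 0.616 (0.279 to 1.26). It lies at chr1:46807544-46892852 on the minus strand, overlapped by Gm28151 and Gm37393 on the same strand.

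Slc39a14 (ZIP14, an importer of zinc, iron and manganese) was higher in both Th17-culture populations than in SPF, like the metallothioneins, while DP lay inside the range of SPR. It was at 24.0, 24.1 and 26.1 CPM in DP, against 17.8, 43.0 and 27.1 CPM in SPR and 8.17, 5.58 and 13.9 CPM in SPF. The DP libraries lay close together, and all 6 DP and SPR libraries were above the highest SPF library. The log2 fold change was -0.29 ± 0.34 (SE) for DP over SPR, 1.35 ± 0.38 for DP over SPF and 1.64 ± 0.37 for SPR over SPF. By replicate number, DP held 1.35, 0.56 and 0.961 times the SPR level. Slc39a14 lies at chr14:70303469-70351425 on the minus strand, free of overlapping genes.

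**Figure D4:**
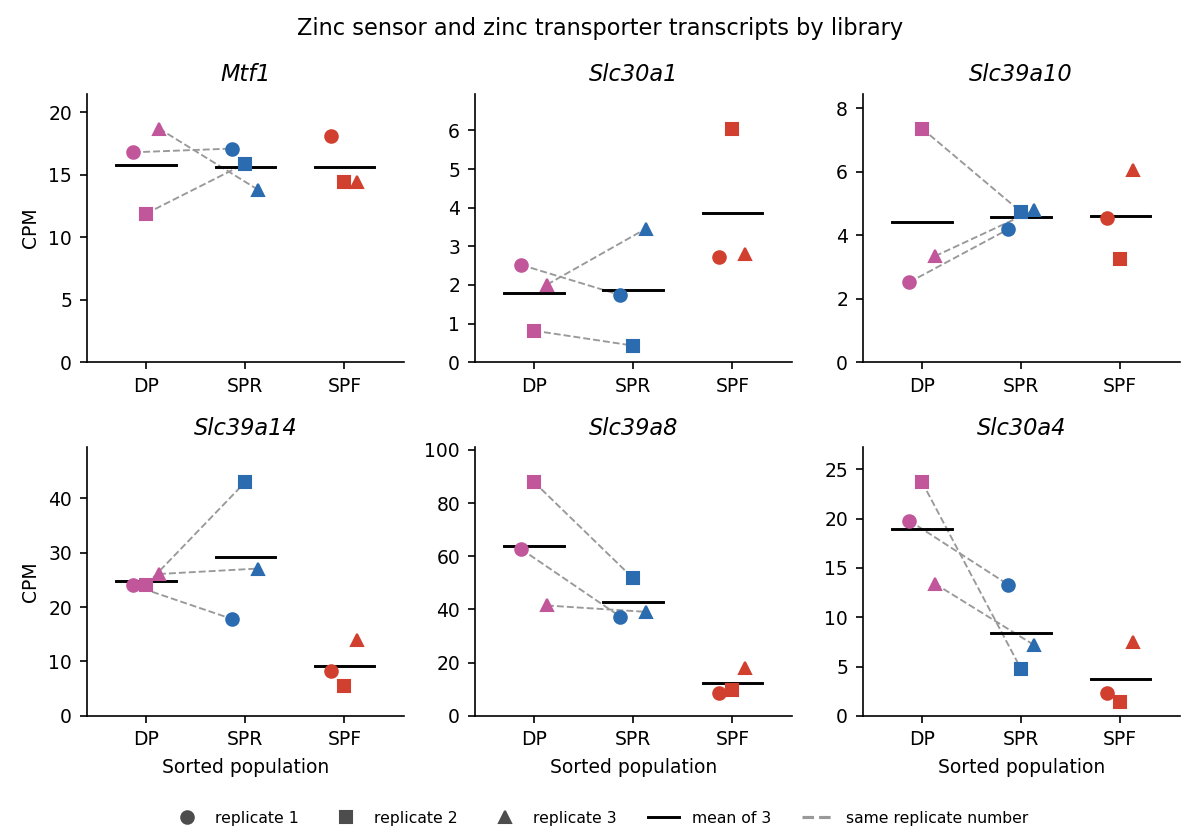
CPM in each library for the sensor Mtf1, the low transporters Slc30a1 and Slc39a10, the importers Slc39a14 and Slc39a8 and the vesicle transporter Slc30a4, each on its own linear axis from 0. Symbols mark the replicate number, black bars the mean of 3 libraries, and dashed lines join same-numbered DP and SPR libraries. The 3 SPF points of Slc39a14 and Slc39a8 lie below all DP and SPR points, while those of Mtf1 and Slc39a10 do not.

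The position of DP between the other populations was put on the study's similarity scale, where 1 is the SPR mean and -1 the SPF mean of log2(CPM + 1). Mt1 scored 0.277 and Mt2 0.366, so that the DP mean lay between the 2 on the SPR side of the midpoint, and Slc39a14 scored 0.806. By the classes of the study, the scores of Mt1 and Mt2 are intermediate and that of Slc39a14 is SPR-like. Leaving out single libraries moved Mt1 between 0.0475 and 0.438 and Mt2 between 0.169 and 0.519. For Slc39a14 the score was 0.514 without SPR replicate 1 and 1.26 without SPR replicate 2, so its place relative to SPR rests on those 2 libraries. Mtf1, Slc30a1 and Slc39a10 differed by less than 1 log2 unit between SPR and SPF and were given no score.

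The rest of the zinc gene families, which are not members, were tested in the same fit. Of 29 genes listed as metallothioneins, sensor, ZnT and ZIP genes, 25 had a row in the table, and 14 besides the members passed the filter. The 4 listed genes without a row were not analysed here, and Mt3 had 2 counts in all, both in SPR. In DP against SPR 0 of the 14 passed edgeR's test in the fit of 9 libraries, where 0.0107% of all tested genes did. Their median log2 fold change was 0.07 (all genes tested -0.01). In DP against SPF 3 of the 14 were higher and 1 lower, where 7.55% of all tested genes were higher and 6.18% lower. The median was 0.13 (all genes 0.01). In SPR against SPF 1 of the 14 was higher, where 9.14% of all tested genes were higher and 7.58% lower. The median there was 0.25 (all genes 0.001).

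Slc39a8 (ZIP8, an importer at the plasma membrane and lysosome) was the zinc gene outside the members whose calls held best. It stood at 62.7, 87.9 and 41.5 CPM in DP, against 37.3, 51.7 and 39.1 CPM in SPR and 8.62, 9.77 and 18.1 CPM in SPF, so that every Th17-culture library exceeded every SPF library. It was higher in DP than in SPF (log2 fold change 2.33 ± 0.33 (SE), edgeR adjusted p = 0.0019) and in SPR than in SPF (1.78 ± 0.33, edgeR adjusted p = 0.0048). All 16 alternative settings kept both calls, with adjusted p of at most 0.013 and 0.027. Between DP and SPR the log2 fold change was 0.54 ± 0.29 (edgeR adjusted p = 0.83), with DP higher in 3 of 3 pairs. Slc39a8 shares its locus, chr3:135825279-135888572 (plus strand), with 4933401H06Rik, Gm43428 and Gm43429.

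Slc30a4 (ZnT4, a transporter of vesicles) was at 19.8, 23.7 and 13.4 CPM in DP, against 13.3, 4.73 and 7.18 CPM in SPR and 2.27, 1.396 and 7.44 CPM in SPF. Slc30a4 exceeded SPF in DP cells by 2.28 ± 0.56 (SE) on the log2 scale (edgeR adjusted p = 0.024). No SPF library was above 10 CPM, so the gene passed the filter through Th17-culture libraries alone, and no support is drawn from its p against SPF. All DP values were also above all SPR values, but that difference of 1.12 ± 0.50 did not pass (edgeR adjusted p = 0.76). Its call against SPF was lost in 4 of 16 alternatives, without DP replicate 1 or 2 or SPF replicate 1 or 2 (adjusted p up to 0.092). Slc30a5 (ZnT5, of the secretory pathway) was higher in DP, at 43.3 ± 6.54 CPM against 25.7 ± 3.98 CPM in SPF (SD, n = 3 each, log2 fold change 0.69 ± 0.19, edgeR adjusted p = 0.04). Slc39a3 (ZIP3, an importer) was lower in DP, at 8.96 ± 3.87 CPM against 19.2 ± 0.975 CPM in SPF (log2 fold change -1.18 ± 0.33, edgeR adjusted p = 0.039). The call of Slc30a5 was lost in 10 of 16 alternatives (adjusted p up to 0.14), among them leaving out any DP library, SPR replicate 1 or 3, or SPF replicate 1 or 2. That of Slc39a3 was lost in 8 of 16 (adjusted p up to 0.11), among them leaving out DP replicate 2 or 3, SPR replicate 1 or 3, or SPF replicate 1 or 2. The other 10 filtered zinc genes (Slc30a6, Slc30a7, Slc30a9, Slc39a1, Slc39a4, Slc39a6, Slc39a7, Slc39a9, Slc39a11 and Slc39a13) passed in no comparison.

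**Figure D5:**
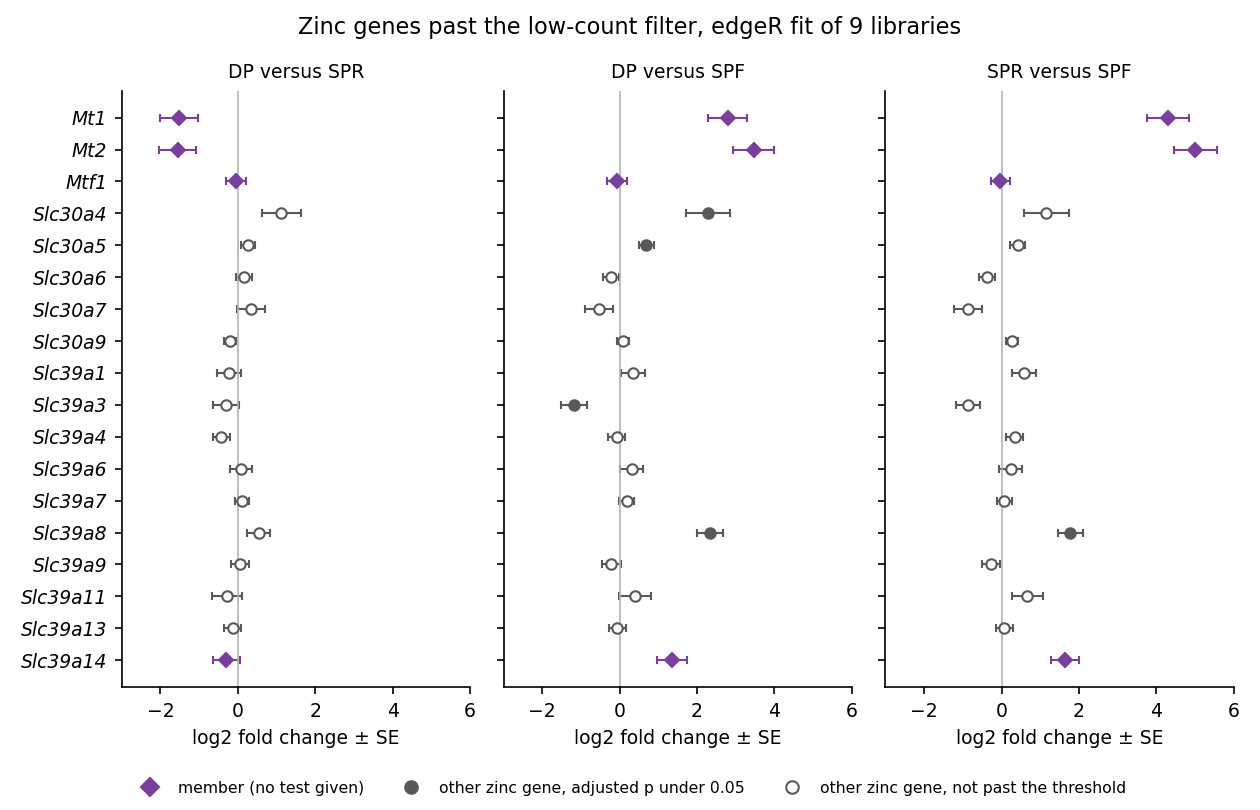
Log2 fold change ± SE of the 18 filtered zinc genes in DP against SPR, DP against SPF and SPR against SPF, from the edgeR fit of 9 libraries. Purple diamonds are members, whose place relative to the threshold is not marked, and filled grey circles are other zinc genes with an adjusted p under 0.05. Mt1 and Mt2 lie furthest from 0 in all 3 panels.

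Genes of related systems were counted in the same fit. In DP against SPR none of the copper, iron, metal and oxidative stress, glucocorticoid or IL6 and STAT3 lists held a called gene. Only 0.0107% of all 9310 tested genes, Foxp3 alone, were called there, so this does not set these lists apart. The paired fit is not given for them. For the counts against SPF, the shares of all tested genes were 7.55% higher and 6.18% lower in DP, and 9.14% higher and 7.58% lower in SPR. Of 7 metal and oxidative stress genes, 2 were higher in DP than in SPF and 3 higher in SPR than in SPF. One was Hmox1, the inducible heme oxygenase, with 52 counts over the DP libraries and 59 over the SPR libraries, against 3 over the SPF libraries. The scaled ratio of Hmox1 was 17.8 for DP over SPF (95% counting interval 5.78 to 89.3, edgeR adjusted p = 0.015) and 14.3 for SPR over SPF (4.66 to 71.3, edgeR adjusted p = 0.013), and 9.52 for DP over SPF without DP replicate 2 (2.75 to 50.7). The Hmox1 call for DP was lost without DP replicate 2 or SPF replicate 2 (edgeR adjusted p = 0.068 and 0.056). Hmox1 exceeded 10 CPM only in replicate 2 of DP and of SPR. It was thus tested only through the groups where it was high, and no support is drawn from its p. The chaperone gene Hsph1 was at 49.2 ± 11.2 CPM in DP and 46.0 ± 23.6 CPM in SPR, against 18.1 ± 7.43 CPM in SPF. Hspa8, a constitutive chaperone gene, was higher in SPR than in SPF (log2 fold change 0.57 ± 0.17, edgeR adjusted p = 0.04).

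Of 11 copper genes, 2 were higher and 1 lower than in SPF in each Th17-culture population. The copper chaperone Ccs was higher in DP (208 ± 15.7 CPM against 125 ± 24.5 CPM in SPF), and Sco2, an assembly factor of cytochrome oxidase, was higher in both. Atp7b, a copper exporter, was higher in SPR (9.15 ± 1.44 CPM against 1.38 ± 1.22 CPM in SPF). At these levels Atp7b passed the filter of 10 CPM through Th17-culture libraries alone, so no support is drawn from its call. Atox1, the chaperone that hands copper to exporters, was lower in both, by log2 fold changes of -0.67 in DP and -0.66 in SPR (edgeR adjusted p = 0.046 and 0.040). Of 11 iron genes, Pcbp1, an iron chaperone, was higher in both and Fth1, the ferritin heavy chain, passed the test in SPR, at 1783 ± 265 CPM against 1106 ± 192 CPM in SPF (SD, n = 3 each). Of 8 glucocorticoid response genes, Sgk1 and Fkbp5 were higher and Nr3c1, the glucocorticoid receptor, lower than in SPF in both. Of 7 IL6 and STAT3 response genes, 3 were higher in DP (Socs3, Bcl3 and Junb), and in SPR 3 were higher, Socs3 and Bcl3 among them, and Il6st, the shared receptor chain of IL6, was lower. The calls of Sco2, Nr3c1 and Bcl3 held in both comparisons under all 16 alternatives, while the other genes named from these lists lost calls under some (adjusted p up to 0.15). Against SPF the call of Atox1 was lost in 10 of 16 for DP and 7 for SPR, that of Fkbp5 in 9 for DP, that of Ccs in 7 for DP and those of Fth1 and Hspa8 in 7 for SPR. Those of Hsph1 and Pcbp1 were each lost in 5 for DP and 6 for SPR, that of Junb in 6 for DP and that of Sgk1 in 5 for SPR. That of Hmox1 was lost in 2 for DP, and those of Atp7b, Socs3 and Il6st in 1 for SPR. The part of any of these in the metallothionein levels was not tested.

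The genes whose pattern over the 9 libraries was most like that of Mt1, besides Mt2, were Aprt, Rab33a, Rbpj, Eif1b and Gemin8, with Pearson r of 0.99, 0.989, 0.986, 0.981 and 0.981 in log2(CPM + 1). Rbpj, the DNA-binding partner of Notch, averaged 152 CPM in DP, against 258 CPM in SPR and 38.5 CPM in SPF. Those most like Slc39a14 included Slc37a4, Eif2ak4, Tspan4 and 1700001O22Rik, with r of 0.977, 0.97, 0.966 and 0.964. Mt1 and Mt2 correlated at 0.997 and Mt1 and Slc39a14 at 0.859. These values are descriptions, since the 9 libraries differ in depth and span 3 groups that differ in mean and, for SPF, in culture. With pseudocounts of 0.1 and 5, 4 of 5 genes of each set were shared.

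Depth and cell type markers were compared as facts of all libraries. Total counts were 1495152 to 3759662, so that 1 count was worth 0.266 to 0.669 CPM. All 7 CD4 T cell markers were detected in each population, summing to 3140 to 3920 CPM in DP, 3520 to 4500 CPM in SPR and 4380 to 5030 CPM in SPF. The 8 B cell markers summed to 4.63 to 6.02 CPM in DP, 3.01 to 7.71 CPM in SPR and 16.7 to 32.6 CPM in SPF, with Ms4a1 and Blk at 0 in DP and SPF. The B cell marker past the filter, Cd79b, was lower in both DP (log2 fold change -2.25, edgeR adjusted p = 0.0085) and SPR (-2.25, edgeR adjusted p = 0.0051) than in SPF. By these sums Cd79b passed the filter of 10 CPM through SPF alone, the group where it was high, so no support is drawn from its p. The 7 CD8 and NK cell markers in the table summed to 51.7 to 63.8 CPM in DP, 26.3 to 53.7 CPM in SPR and 20.4 to 61.2 CPM in SPF. The 10 myeloid markers summed to 7.36 to 10.9 CPM in DP, 7.32 to 11.2 CPM in SPR and 6.98 to 17.7 CPM in SPF, so that the groups overlapped, with Csf1r and Cd14 at 0 in all 3. The myeloid marker past the filter, Itgam, was lower in DP (log2 fold change -3.60 ± 1.05 (SE), edgeR adjusted p = 0.046) and in SPR (-4.53 ± 1.09, edgeR adjusted p = 0.017) than in SPF. Itgam too passed the filter through SPF alone, and no support is drawn from its p. Among the CD8 and NK cell markers, Klrd1 was higher in both than in SPF (4.60 in DP and 2.97 in SPR) and Nkg7 lower in SPR (-3.71). By the sums and these fold changes, Klrd1 passed the filter through Th17-culture libraries alone, so no support is drawn from its call. Among the CD4 T cell markers, Cd28 was higher and Cd3e and Cd4 lower in DP than in SPF (1.56, -0.71 and -0.89). The erythroid markers summed to 0.409 to 0.669 CPM in DP, 0 to 0.43 CPM in SPR and 0 to 20 CPM in SPF, so that the groups overlapped. Hba-a1 was lower in SPR than in SPF by edgeR's test (adjusted p = 0.048), with an adjusted p of 0.053 in DP. It passed the filter through SPF alone, where the lowest library held no erythroid count, so no support is drawn from these p. The part of other cell types in the results was not tested.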

How the data were processed

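MARS-seq libraries of 9 samples were analysed from raw counts per gene, as deposited by the authors. The submitters' processing notes list STAR, HTSeq, SAMtools, cutadapt and the build mm10. Tool versions, annotation, strand setting and handling of molecular identifiers: not given in the sources used here. One line and 1 column without a name (totals, and no library) were left out. Total counts ran from 1495152 to 3759662. CPM were computed by dividing by the column total.

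The 9310 genes above 10 CPM in 1 library or more entered edgeR's quasi-likelihood test (version 4.0.16, R 4.3.3), with TMM factors, 1 fit of the 9 libraries and a threshold of 0.05 on the Benjamini-Hochberg adjusted p. The fit had 6 residual degrees of freedom and 4.93 from the prior. An exact permutation test of 3 against 3 libraries allows no two-sided p below 0.1. The script was tested on simulated data. Alternatives were library totals, RLE factors, DESeq2 1.42.0, filterByExpr, no filter, a replicate block, only the groups compared, Mt1 and Mt2 summed, other pseudocounts (0.1 and 5), TMM-scaled CPM, and each library left out. Paired fits without each replicate number or without the filter, and summed ratios of low genes with each library left out, were added after seeing the data. Same-numbered DP and SPR libraries deviated together (correlations 0.222, 0.401 and 0.407), while those of DP and SPF (0.124, -0.0152 and -0.151) and of SPR and SPF (0.0913, 0.0954 and -0.12) did not. Sequences are RefSeq windows of GRCm38.p6, and positions are from GENCODE M21. The upstream bases of Mt1 and Mt2 transcripts that begin after the RefSeq start were read from the window joined to the transcript.

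The members and lists were chosen with earlier results of these data known. Named genes are the members, zinc genes past the filter, up to 3 called genes per related list and comparison with the largest change, the 5 genes most like Mt1 and Slc39a14, and the reporter genes, of which Foxp3 is given. Some genes that this rule names are not reported here. Gclc, Txnrd1 and the cell type markers were named after their values were seen.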

Additional observations from a re-analysis of the deposited data

How the results depend on the processing

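Every alternative kept the direction of the log2 fold changes of Mt1 and Mt2 in all 3 comparisons, and they ran from -2.18 to -1.18 (Mt1) and -2.2 to -1.21 (Mt2) for DP over SPR. As 1 summed feature they gave -1.53 for DP over SPR, 3.07 for DP over SPF and 4.59 for SPR over SPF. The count of genes called for DP against SPR was 1 in the fit of 9 libraries and 44 with DESeq2, 4 with library totals, 211 without a low-count filter, 2 with only the groups compared and 7 with the replicate block over 9 libraries. The replicate block over the SPR and DP libraries alone gave 324, and 646 without a filter, and gave 130 without replicate 1, 447 without replicate 2 and 120 without replicate 3. With single libraries left out of the fit of 9, the count ran from 1 to 6. The block over the SPR and DP libraries alone called no zinc gene outside the members, except 1 (Slc30a4, edgeR adjusted p = 0.00299) without a filter. Leaving out a library called 0 zinc genes here. For DP against SPF the count was 2137 without a filter, and 553 to 1822 with single libraries left out, the lowest without SPF replicate 2 and 565 without DP replicate 2. The 4 zinc genes called were 2 with only the groups compared and 1 to 4 with single libraries left out. For SPR against SPF the count was 2479 without a filter and 836 to 2059 with single libraries left out, the lowest without SPR replicate 2 and 878 without SPF replicate 2, and the 1 zinc gene was 2 with only the groups compared and 1 to 2 with libraries left out. The similarity score ran from 0.0475 to 0.438 for Mt1, 0.169 to 0.519 for Mt2 and 0.514 to 1.26 for Slc39a14. No called value reversed, while uncalled values near 0 changed sign, such as Mtf1 in all 3 comparisons (-0.268 to 0.144) and Slc39a14 for DP over SPR (-0.552 to 0.135). The cause of these differences was not tested. Depth (0.266 to 0.669 CPM per count) limits Slc30a1 and Slc39a10, which had at most 18 counts in a library.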
